A study of Ovis aries with 14 samples.

Results

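Oxytocin and its receptor were measured in the hypothalamus of late-gestation fetal sheep, across all probes of an ovine array that carry either gene. Members were every probe whose gene name, or symbol after matching to a gene table, was OXT or OXTR. These 2 genes, of 962 gene symbols on the array, were read by 4 of the 15008 non-control probes, 2 for each gene, on 8 of the 15744 spots.

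RNA came from fetuses at around day 130 of gestation and was hybridised to single-colour (Cy3) arrays, 1 sample on each. In the direct arm, catheterised fetuses received triclosan, an antibacterial agent of personal care products, at 250 µg per day (n = 4) or vehicle (n = 4) into their own circulation for 2 days. In the indirect arm, the ewe received triclosan at 100 µg/kg per day (n = 3) or vehicle (3 deposited arrays) for 2 days, and the fetal hypothalamus was again the tissue measured. The doses of the arms are in different units and went to different animals. The labels give no breed, sex or genotype and do not say if the fetuses of a group had different mothers, so p-values measure only the spread between these samples.

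Maternal vehicle replicate 3 as deposited was a weighted mixture of the other two arrays of its group, with weights of 0.6 for replicate 1 and 0.4 for replicate 2 at all 15744 spots. It was left out, which leaves maternal vehicle with n = 2 and 13 arrays in all. The median processed signal of these arrays was 236 to 380, the share of spots well above background ran from 83.3% to 90.1%, and 0 were saturated. Replicate numbers 1 to 3 matched slide numbers 1 to 3 in every group. Slide 3 also carried fetal vehicle replicate 4, and slide 5 carried no array but fetal triclosan replicate 4, which had a scan day of its own. As for the tissue label, the hypothalamic peptide genes SST, TAC1, ADCYAP1, NPY and POMC were well above background on 13 of 13 arrays, and GNRH1 on 11 of 13. PRL, CGA and LHB of the pituitary, TTR of the choroid plexus and HBB and AHSP of red cells were also so on 13 of 13. FSHB and POU1F1 of the pituitary were so on 6 and 5 of 13, and CA1 of red cells on 10 of 13. Since genes of both kinds carried it on 13 of 13, this flag alone does not tell the hypothalamus from neighbouring tissue.

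Oxytocin is a short peptide cut from a larger precursor that also carries its neurophysin. It is made chiefly by magnocellular neurons of the paraventricular and supraoptic nuclei, whose axons release it into the blood in the posterior pituitary. From there it acts on uterine contraction and milk ejection. Its receptor, OXTR, couples mainly to the Gq pathway and calcium release and is present on uterine muscle, mammary cells and neurons.

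Both OXT probes read the same stretch of the transcript. They are 60 bases long, start at bases 441 (probe 1) and 442 (probe 2), and share 59 bases, so they are near repeats of each other and not separate evidence. The OXTR probes, listed on the array under the older name OTR, start at bases 2073 and 1849, 224 bases apart. Because the results differ between them, bases 31 to 60 of each probe are shown, 5′ to 3′, as the array files give them. Capitals mark AATAAA, the polyadenylation signal hexamer.

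OXT probe 1: ggaattatgacaatgaAATAAAgccttttt
OXT probe 2: gaattatgacaatgaAATAAAgcctttttt
OXTR probe 1: tatgctaatacttcagaagcatttgggaaa
OXTR probe 2: gaccaggtgggtacggaagcctagtgttct

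The hexamer AATAAA was found in both OXT probes and in neither OXTR probe over their full 60 bases, and was held by 5.63% of all 15008 probes (9.14% with the opposite strand counted too). OXT probe 1, OXT probe 2 and OXTR probe 2 had 1 spot on each array, whereas OXTR probe 1 had 5, and these were averaged. In both genes probe 1 had the higher mean signal and stands for the gene where a single value is given.

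OXT was among the brighter probes and OXTR among the dimmer ones. With all tested probes divided into 10 equal bins by mean signal, from bin 1 for the dimmest, both OXT probes lay in bin 9 and both OXTR probes in bin 2. The raw signal of OXT probe 1 was 33.9 to 176 times its local background, against 1.87 to 2.90 times for OXTR probe 1 and 1.63 to 2.63 times for OXTR probe 2. All 103 member spots that were used were well above background, and 1 outlier spot of OXTR probe 1 on maternal vehicle replicate 2 was left out. Signals of different probes are not levels of RNA that can be set against each other.

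Values below are log2 of the processed signal minus the 75th percentile of the same array, called the scaled signal. OXT probe 1 had a scaled signal of 1.80, 2.26, 1.38 and 0.11 in fetal triclosan replicates 1 to 4, against 0.69, 0.23, 1.75 and 1.15 in fetal vehicle replicates 1 to 4. It had 1.83, 1.75 and 0.87 in maternal triclosan replicates 1 to 3, against 1.43 and 0.66 in maternal vehicle replicates 1 and 2. The lowest and the highest of all 13 values were both from fetal triclosan, replicates 4 and 2, and the groups overlapped in both arms. OXT probe 2 followed it closely, with 1.67, 2.12, 1.27 and 0.49 in fetal triclosan, 0.71, 0.25, 1.62 and 1.13 in fetal vehicle, 1.69, 1.67 and 0.88 in maternal triclosan, and 1.38 and 0.58 in maternal vehicle.

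**Figure D1:**
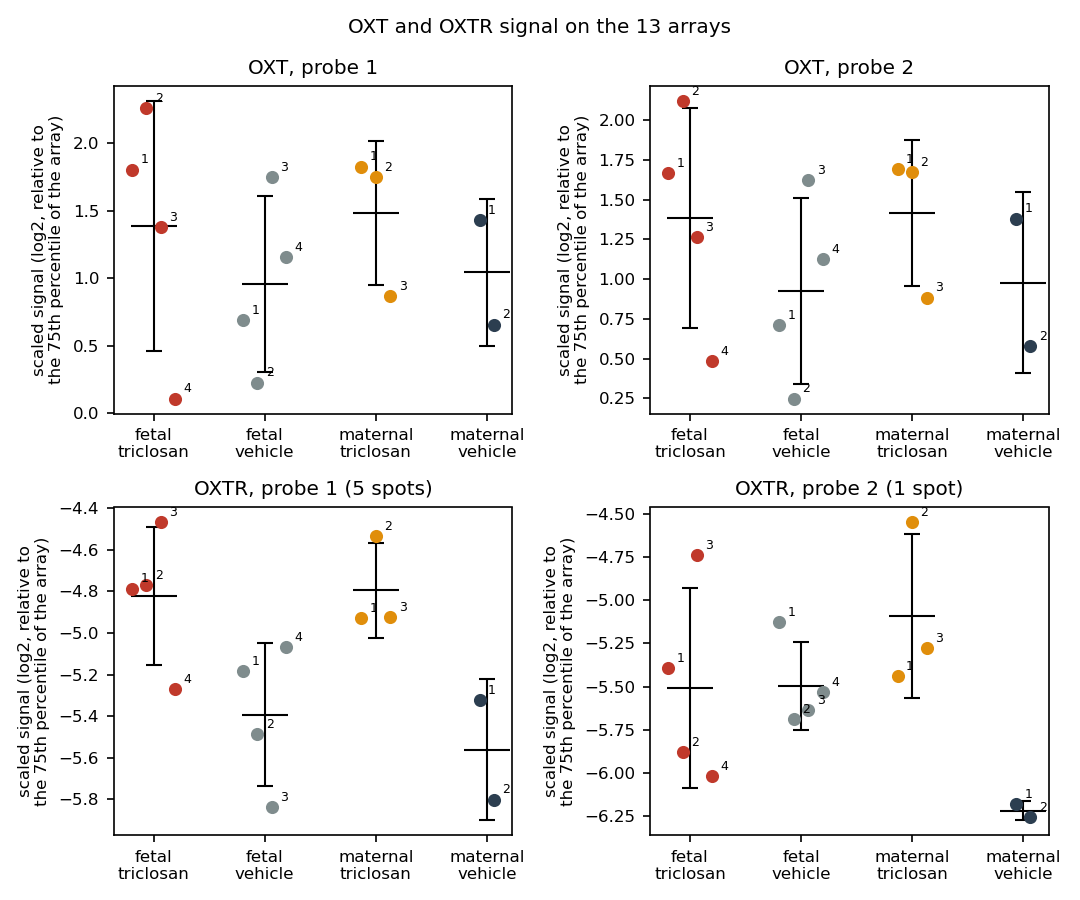
Scaled signal (log2, relative to the 75th percentile of the array) of each OXT and OXTR probe on 13 arrays, by group. Points are arrays numbered by replicate, and bars are the group mean ± SD. Fetal triclosan replicate 4 is the lowest of its group in every panel, and OXTR probe 1 is the panel in which 6 of 7 triclosan arrays lie above all vehicle arrays.

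OXT varied widely between arrays of 1 group. Its processed signal on probe 1 ran from 1496 to 7905 over the 13 arrays. The pooled SD within groups was 0.72 on the log2 scale for probe 1, larger than that of 90.9% of the tested probes, and 0.60 for probe 2, larger than that of 86.4%. The median over all tested probes was 0.27.

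No difference in OXT between triclosan and vehicle exceeded that spread. OXT probe 1 averaged 1.39 ± 0.93 in fetal triclosan and 0.95 ± 0.65 in fetal vehicle (scaled signal, SD, n = 4 each), a difference of 0.43 with a standard error (SE) of 0.46. The 95% confidence interval reached from −0.58 to 1.45, the adjusted p of limma's test was 0.552, and a two-sided exact permutation test gave p = 0.457. After maternal infusion it averaged 1.48 ± 0.53 with triclosan (n = 3) and 1.04 ± 0.55 with vehicle (n = 2), a difference of 0.44 (95% interval −0.87 to 1.75, adjusted p = 0.813 by limma). Both intervals include 0 as well as differences above 1 on the log2 scale.

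The OXT difference moved with single arrays. Without fetal triclosan replicate 4, the direct difference was 0.86 (adjusted p = 0.145 by limma), and without fetal triclosan replicate 2 it was 0.14. Within slides, fetal triclosan minus fetal vehicle was 1.11 on slide 1 and 2.03 on slide 2, but −0.08 on slide 3, where fetal vehicle had 2 arrays. Within slides 1 and 2, maternal triclosan minus maternal vehicle was 0.40 and 1.09. The order of group means was maternal triclosan, fetal triclosan, maternal vehicle and fetal vehicle, and no pair of neighbours in that order differed by more than the larger SD of the pair. For the vehicle groups, maternal vehicle minus fetal vehicle was 0.09 for OXT probe 1 (95% interval −1.15 to 1.33, adjusted p = 0.999 by limma).

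On probe 1, the OXTR signal differed more evenly between triclosan and vehicle arrays than that of OXT. OXTR probe 2 did not share this in the direct arm. OXTR probe 1 had a scaled signal of −4.79, −4.77, −4.47 and −5.27 in fetal triclosan replicates 1 to 4, against −5.19, −5.49, −5.84 and −5.07 in fetal vehicle replicates 1 to 4. It had −4.93, −4.53 and −4.92 in maternal triclosan replicates 1 to 3, against −5.32 and −5.80 in maternal vehicle replicates 1 and 2. Of the 7 triclosan arrays, 6 lay above all 6 vehicle arrays, the exception being fetal triclosan replicate 4. The fetal groups therefore overlapped and the maternal groups did not. Non-overlapping groups with triclosan higher were found for 8.98% of probes in the direct arm and for 19.9% in the indirect arm, where the groups are smaller, so the separation in the indirect arm is common on these arrays.

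**Figure D2:**
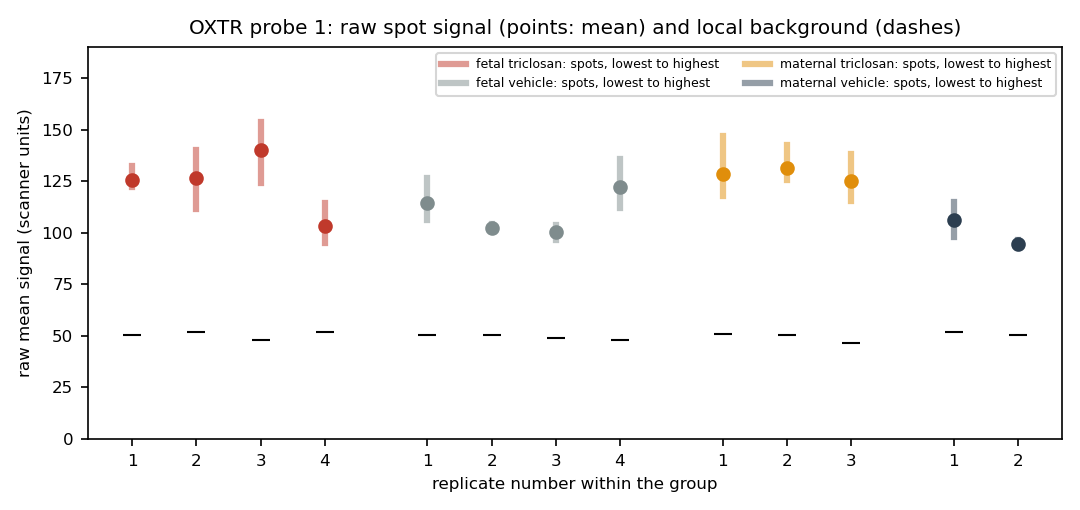
Raw mean signal in scanner units of the 5 spots of OXTR probe 1 on each array, by group. Vertical bars run from the lowest to the highest spot, points are the mean, and black dashes are the local background. The means lie between 94.6 and 140, with a local background between 46.7 and 51.8.

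The 5 spots of OXTR probe 1 agreed well within an array. Their SD on the log2 scale was 0.058 to 0.17, with a median of 0.11, compared with an SD of 0.43 between the 13 arrays. Raw means of 126, 127, 140 and 103 in fetal triclosan stood against 114, 102, 100.4 and 122 in fetal vehicle. Maternal triclosan had 129, 131 and 125, against 106 and 94.6 in maternal vehicle. The local background, 46.7 to 51.8, was about the same on every array.

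OXTR probe 1 averaged −4.82 ± 0.33 in fetal triclosan and −5.39 ± 0.34 in fetal vehicle (scaled signal, SD, n = 4 each), a difference of 0.57 (SE 0.21, 95% interval 0.10 to 1.04), or 1.48-fold. This missed the threshold of 0.05 over all probes, with an adjusted p of 0.0873 by limma, and the exact permutation test gave p = 0.0857 where 0.0286 was the smallest possible. In the same comparison 18.1% of the 13740 probes passed, 6.8% higher and 11.3% lower with triclosan. After maternal infusion OXTR averaged −4.80 ± 0.23 with triclosan (n = 3) and −5.56 ± 0.34 with vehicle (n = 2), a difference of 0.77 (SE 0.28, 95% interval 0.16 to 1.37, adjusted p = 0.463 by limma). In that arm 0% of the probes passed by limma, and 1324 probes (9.64%) had an unadjusted p under 0.05, both OXTR probes among them. The exact permutation p was 0.1, the smallest that 3 against 2 arrays allow.

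Averaged over both arms, which is a comparison added after the data were seen, OXTR probe 1 was higher with triclosan by 0.67 (SE 0.17, 95% interval 0.29 to 1.05), or 1.59-fold. The adjusted p of limma was 0.0366, in a comparison where 9.34% of probes passed and 3.2% passed as higher. With 1 array left out at a time, that call was kept in 4 of 13 fits, those without fetal triclosan replicate 3 or 4, fetal vehicle replicate 4 or maternal triclosan replicate 3. It was lost without any of the other arrays, with an adjusted p by limma of up to 0.164 (without maternal vehicle replicate 2). Blocking on replicate number gave 0.69 (adjusted p = 0.0594 by limma), and with the slide as a block it was 0.74 (0.0237). Fetal triclosan replicate 4 is alone on its slide, so a slide block gives that array no part in the difference. OXT probe 1 in the same comparison differed by 0.44 (SE 0.38, adjusted p = 0.513 by limma).

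**Figure D3:**
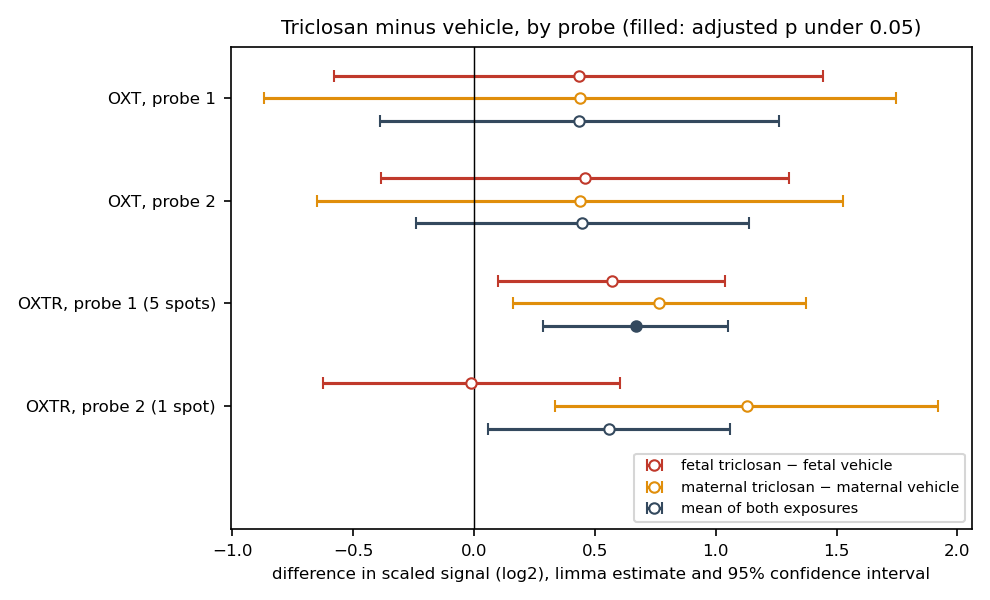
Difference in scaled signal (log2), triclosan minus vehicle, for each OXT and OXTR probe in the direct arm, the indirect arm and their mean, with 95% confidence intervals of the limma fit. Filled points have an adjusted p under 0.05, which holds for OXTR probe 1 in the mean of both arms alone, and OXTR probe 2 in the direct arm sits at −0.01.

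The second OXTR probe did not give the same picture in the direct arm. It had a scaled signal of −5.39, −5.88, −4.74 and −6.02 in fetal triclosan, against −5.13, −5.69, −5.64 and −5.53 in fetal vehicle. Fetal triclosan thus held its highest and its 2 lowest values among those 8 arrays. The difference was −0.01 (95% interval −0.63 to 0.60, adjusted p = 0.983 by limma), a range that includes the 0.57 of probe 1. In the indirect arm probe 2 had −5.44, −4.55 and −5.28 with triclosan, against −6.18 and −6.26 with vehicle, a difference of 1.13 (95% interval 0.34 to 1.92, adjusted p = 0.436 by limma).

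On probe 2 the difference between the arms, direct minus indirect, was −1.14 (95% interval −2.14 to −0.14, adjusted p = 0.311 by limma), whereas on probe 1 it was −0.20 (−0.96 to 0.57, adjusted p = 0.798) and for OXT probe 1 it was −0.01 (−1.66 to 1.65, adjusted p = 0.997). No probe of the array passed in this comparison by limma (0%), and 14.7% had an unadjusted p under 0.05. Maternal vehicle minus fetal vehicle was −0.17 for OXTR probe 1 and −0.72 for probe 2 (adjusted p = 0.999 for both by limma), again with 0% of probes passing and 3.27% at an unadjusted p under 0.05.

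Within an array, OXTR probe 1 minus probe 2 ranged from −0.20 in fetal vehicle replicate 3 to 1.11 in fetal triclosan replicate 2, a wider range than the −0.38 to 0.14 between the overlapping OXT probes. Over the 13 arrays the OXTR probes correlated at r = 0.70 (Spearman 0.68), with a permutation p of 0.0077 that became 0.0231 after adjustment over 3 relations, and at 0.71 without the arrays farthest from the median, fetal vehicle replicate 3 and maternal vehicle replicate 2. Whether the probes detect different transcripts was not tested.

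The order of group means for OXTR probe 1 was maternal triclosan, fetal triclosan, fetal vehicle and maternal vehicle, and the step between the fetal groups, 0.57, was the one larger than the SD of either neighbour. On slides 1, 2 and 3, fetal triclosan minus fetal vehicle for OXTR probe 1 was 0.40, 0.72 and 0.99, so all 3 slides gave triclosan the higher signal. OXTR probe 2 gave −0.26, −0.19 and 0.84 on the same slides. On slides 1 and 2, maternal triclosan minus maternal vehicle was 0.40 and 1.27 for probe 1, and 0.74 and 1.71 for probe 2. Leaving out fetal triclosan replicate 4, the array alone on its slide, put the direct difference of OXTR probe 1 at 0.72 with an adjusted p of 0.0323 by limma. With the slide also kept as a block the value was again 0.72, but the adjusted p by limma was 0.0556, which no longer passed. The slide block on all 13 arrays gave 0.0557, a near repeat of that fit, since the block takes up fetal triclosan replicate 4.

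Whether OXTR probe 1 passed in the direct arm also varied with the processing of the arrays. In the authors' deposited log2 values, OXTR probe 1 had 6.61, 6.69, 6.62 and 6.36 in fetal triclosan, against 6.13, 6.12, 5.76 and 6.21 in fetal vehicle. It had 6.37, 6.59 and 6.22 in maternal triclosan, against 5.97 and 5.98 in maternal vehicle. On that scale all 7 triclosan arrays lay above all 6 vehicle arrays, a separation found for 0.971% of its 13899 probes, and the fetal groups did not overlap, as for 8.73% of probes. The margin was narrow, with maternal triclosan replicate 3 at 6.218 and fetal vehicle replicate 4 at 6.211. For OXTR probe 2, 2 of the 7 triclosan arrays lay above all 6 vehicle arrays on that scale. With the 75th percentile scaling, 0.853% of probes had all triclosan arrays above all vehicle arrays, and OXTR probe 1 was not one of them. The direct difference was 0.51 with an adjusted p of 0.0230 in limma on the authors' values, 0.79 (0.0209) with scaling to the median and 0.83 (0.0137) with quantile normalisation. With normexp background correction it was 0.39 and did not pass (0.204); there all 4 fetal triclosan arrays lay above all 4 fetal vehicle arrays, but 0 of the 7 triclosan arrays lay above all 6 vehicle arrays, since maternal vehicle replicate 1 was the highest of the 13 at −3.17.

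**Figure D4:**
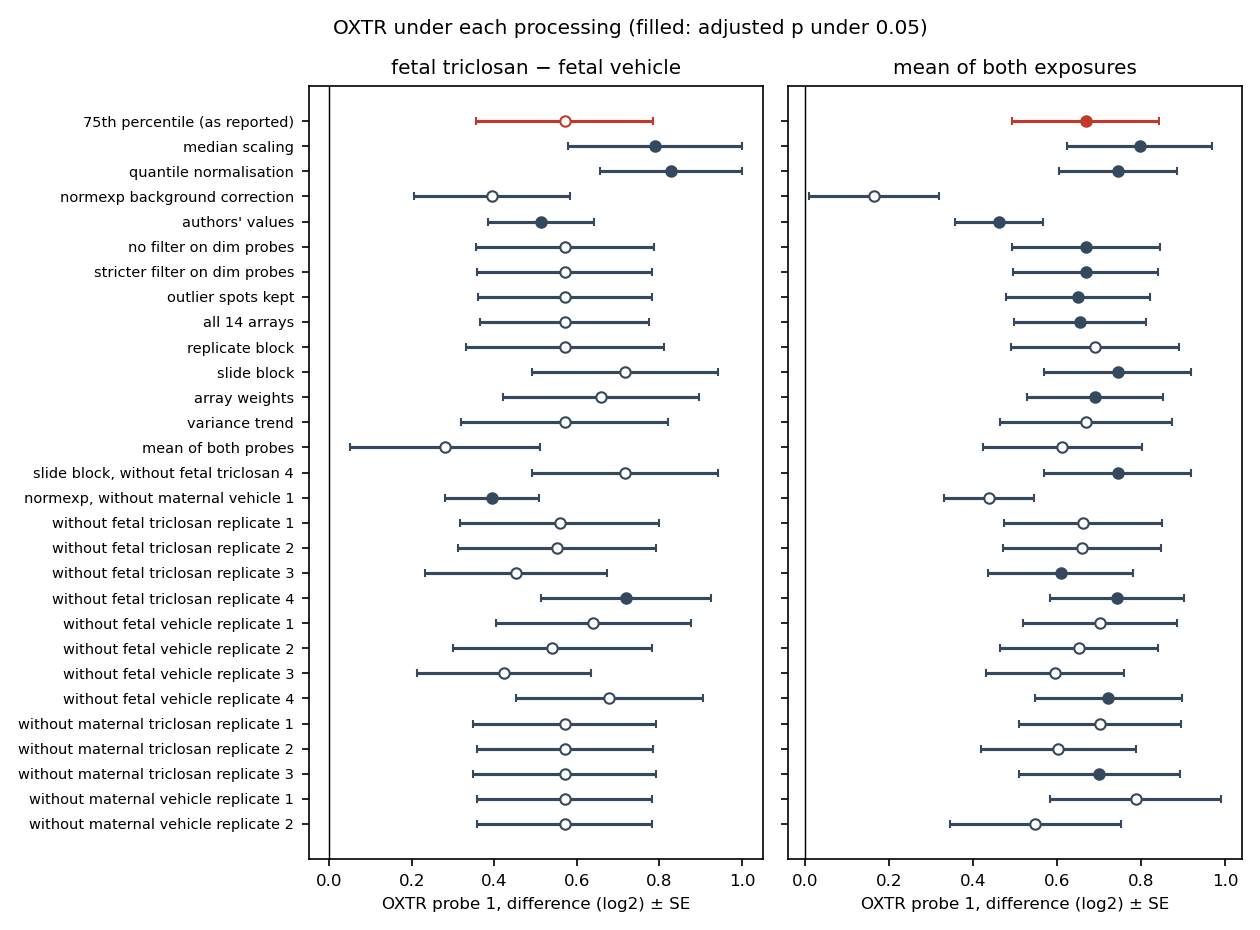
Difference in OXTR probe 1 (log2, ± SE of the limma fit) in the direct arm and in the mean of both arms under each processing and with each array left out. Filled points have an adjusted p under 0.05. Every direct value lies above 0, from 0.28 for the mean of both probes to 0.83 for quantile normalisation.

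Dim probes such as OXTR were shifted downwards as a class in the direct arm. In bin 2 of signal the median difference of all probes was −0.27, in bin 9, where OXT lies, it was 0.11, and over all probes it was −0.09. In the indirect arm the corresponding medians were 0.08 for bin 2 and 0.01 for all probes. The 0.57 of OXTR probe 1 therefore stood against a median below 0 among probes of like brightness, and the part of that shift in the result was not tested.

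The correlation of OXT with OXTR over the 13 arrays missed the threshold. It was r = 0.44 (permutation p = 0.130, adjusted 0.195 over 3 relations; Spearman 0.51), and 0.37 without fetal triclosan replicate 4 and fetal vehicle replicate 2. OXT with OXTR probe 2 gave r = 0.25 (permutation p = 0.410). Slides hold too few arrays for a value within each, and after the group means were removed r was 0.31 for OXT with OXTR probe 1.

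Other hypothalamic peptide genes were read on the same arrays. Of 25 listed peptide genes, 13 were measured, OXT included, and all 13 had a direct difference above 0 (median 0.65), though 0 of the 13 passed. Of all 901 named genes 365 were above 0 (median −0.10), and 54 passed as higher and 81 as lower. In the mean of both arms, where 31 of the 901 named genes passed as higher and 48 as lower, GHRH, the growth hormone releasing hormone, was higher by 2.68 (adjusted p = 0.0460 by limma) and TAC1, the precursor of substance P, by 0.35 (0.0469). The mean scaled signal of the 12 peptide genes other than OXT was −0.06, −0.08, −0.17 and −1.73 in fetal triclosan replicates 1 to 4, against −1.54, −1.99, −1.80 and −0.49 in fetal vehicle replicates 1 to 4. It was −0.46, −0.14 and −0.38 in maternal triclosan, against −1.68 and −1.28 in maternal vehicle. In bulk tissue, fewer peptide neurons in a dissected piece and less RNA per neuron cannot be told apart.

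**Figure D5:**
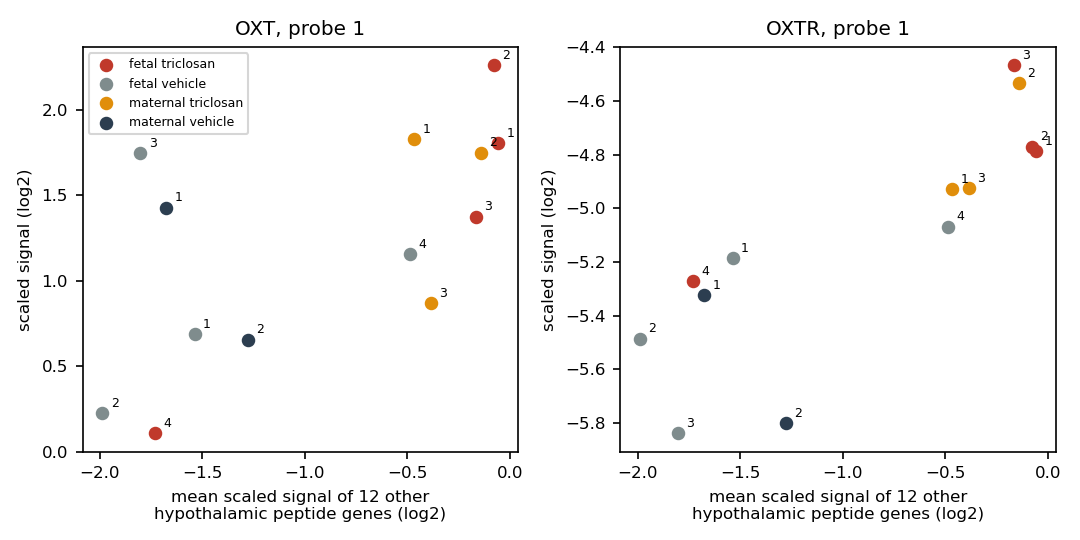
Scaled signal (log2) of OXT probe 1 and OXTR probe 1 against the mean scaled signal of 12 other hypothalamic peptide genes on 13 arrays, numbered by replicate and coloured by group. The arrays fall into 2 clusters, with fetal triclosan replicate 4 among the vehicle arrays and fetal vehicle replicate 4 among the triclosan arrays.

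Divided at the widest gap of that peptide mean, a division made after the values were seen, the arrays formed 2 clusters, 7 between −0.49 and −0.06 and 6 between −1.99 and −1.28, with a gap of 0.79. The cluster of 7 held 6 triclosan arrays and fetal vehicle replicate 4, and the cluster of 6 held 5 vehicle arrays and fetal triclosan replicate 4. OXTR probe 1 did not overlap between the clusters. It was −5.07 to −4.47 (median −4.79) in the 7 arrays and −5.84 to −5.19 (median −5.40) in the 6. OXT probe 1 overlapped, at 0.87 to 2.26 (median 1.75) in the 7 and 0.11 to 1.75 (median 0.67) in the 6. The part of the peptide signal in the OXTR difference was not tested. Within the 7 arrays, the correlation of OXTR with the peptide mean missed the threshold at r = 0.71 (exact permutation p = 0.0897, adjusted 0.340 over 4 relations; Spearman 0.64), as did that of OXT at 0.58 (exact permutation p = 0.170, Spearman 0.50). Within the 6 arrays, r was −0.15 for OXTR (exact permutation p = 0.764, Spearman 0.26) and 0.03 for OXT (exact permutation p = 0.950, Spearman 0.09).

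Markers of other cells were looked at on the same arrays, as a summed signal relative to the 75th percentile of the array, which is led by the brightest probes of a list. Erythroid genes, of which 3 of 6 were measured, summed to 11.8 to 23.4 in fetal triclosan, 4.28 to 12.5 in fetal vehicle, 10.5 to 26.8 in maternal triclosan and 3.28 to 8.90 in maternal vehicle. In the direct arm 1 of the 3 rose, beside 54 of the 901 named genes. It was AHSP, a chaperone of alpha haemoglobin, by 0.94 (adjusted p = 0.0383 by limma) on the brighter of its 2 probes. Its other probe differed by 0.51 without passing. In the mean of both arms, where OXTR probe 1 passed, 2 of the 3 were higher with triclosan, beside 31 of the 901 named genes. They were AHSP by 1.19 (adjusted p = 0.0150 by limma) and HBB, beta haemoglobin, by 1.56 (0.0256). Both AHSP probes passed, whereas the other HBB probe differed by 0.40 without passing, and by −0.43 in the indirect arm. Pituitary genes, 5 of 9, summed to 10.8 to 20.1 in fetal triclosan, 10.7 to 15.9 in fetal vehicle, 14.3 to 17.7 in maternal triclosan and 13.5 to 15.0 in maternal vehicle. That sum follows LHB, the bright member, at a scaled signal of 3.41 to 4.33, and 0 of the 5 passed in any comparison. In the indirect arm PRL, prolactin, differed by −1.57 (adjusted p = 0.436 by limma) and CGA, the shared alpha chain of pituitary hormones, by 3.83 (0.514). Choroid plexus genes, 2 of 5, summed to 0.25 to 10.4 in fetal triclosan, 0.51 to 2.58 in fetal vehicle, 0.30 to 0.67 in maternal triclosan and 0.93 to 1.43 in maternal vehicle. The 12 peptide genes summed to 25.7 to 73.1 in fetal triclosan, 19.3 to 41.3 in fetal vehicle, 35.8 to 52.0 in maternal triclosan and 23.1 to 25.4 in maternal vehicle. The part of these lists in the OXTR and OXT differences was not tested.

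Genes most like each member were taken by Pearson correlation over the 13 arrays among 884 named genes with a value on every array. For OXT the highest were KLK1, a tissue kallikrein (0.80), PPP1R12A, a myosin phosphatase subunit (0.78), LPAAT, an acyltransferase of phospholipid synthesis (0.78), SST (0.77) and TAC3 (0.74), and the lowest were BAMBI (−0.77), SRSF3 (−0.76) and MCL1 (−0.74). For OXTR the highest were SST (0.84), CALML4 (0.83), RPS26 (0.82), CBX5 (0.80) and TAC3 (0.80), and the lowest were ACLY (−0.83), RHOB (−0.82) and ACVR1 (−0.79). SST, the precursor of somatostatin, and TAC3, the precursor of neurokinin B, stood among the 5 highest for both. After the group means were removed, the 5 highest for OXTR were at 0.72, 0.62, 0.71, 0.61 and 0.67. The 3 lowest for OXTR were then at −0.68, −0.62 and −0.62, and the 5 highest for OXT at 0.76 to 0.81.

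The rest of the oxytocin system was thinly covered by named probes. Of 6 genes of the oxytocin and vasopressin family, 3 were measured. AVP, the neighbour of OXT in the gene table, was not among the names of the 1552 probes that carry a gene symbol, and the other probes of the 15008 were not searched for it. AVPR1B, a vasopressin receptor of pituitary corticotrophs, differed by −0.46 in the direct arm on its brighter probe (adjusted p = 0.604 by limma) and by 0.21 on its other probe. Of 16 prohormone processing genes, 3 were measured and 0 passed: CPE, which trims basic residues from peptide precursors, differed by 0.13, FURIN, a precursor protease, by −0.05, and QPCT, a glutaminyl cyclase, by 0.20. Of 9 genes of oxytocin breakdown and release, AQP4, the astrocyte water channel, alone was measured and differed by 0.13.

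Signalling below the receptor was represented by 9 of 52 listed genes, of which 1 rose and 0 fell in the direct arm (median −0.03), near the share of 54 higher and 81 lower among the 901 named genes. CALM2, a calmodulin gene, rose by 0.42 (SE 0.13, adjusted p = 0.0452 by limma) with fetal triclosan, and its indirect difference was −0.03. EGFR differed by −0.76 (adjusted p = 0.0695), NOS3, the endothelial nitric oxide synthase, by −0.41 (0.131), MYLK, a myosin kinase, by −0.62 (0.168) and PTGS1, a cyclooxygenase, by 0.39 (0.422). FOS, an immediate early gene, differed by −0.31 on its brightest probe, which did not pass, while 3 of its 4 probes fell, the lowest by 1.49.

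Among steroid receptors and transcription factors, 8 of 19 were measured, of which 1 rose and 1 fell in the direct arm (median −0.33), beside the same 54 and 81 of 901; counts this small do not set the list apart. NR3C1, the glucocorticoid receptor, rose by 0.69 (SE 0.16, adjusted p = 0.0154 by limma) with fetal triclosan and was higher by 0.58 in the mean of both arms (0.0256). ARNT2, a partner of SIM1 in forming oxytocin neurons of the mouse, fell by 0.77 (SE 0.20, adjusted p = 0.0208) on the brighter of its 2 probes, and the other differed by −0.54 without passing. ESR1, the oestrogen receptor alpha, differed by 0.70 (adjusted p = 0.290), CEBPB by −0.40 (0.337) and THRB by −0.25 (0.386). In the indirect arm 0 genes of these 5 lists passed, as was the case for all 13740 probes.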

How the data were processed

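Members and gene lists were chosen with earlier results of these data known. Each file is the scanner output of 1 array, and per the file headers its spot intensity values (raw mean, local background and a background-subtracted, detrended processed signal) were made by the authors with Agilent Feature Extraction 10.1.1.1, per the submitters' processing notes. The authors' deposited value table appears to be on a log2 scale of unstated scaling. The submitters' processing notes also name limma but not what it was used for.

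Control and outlier spots were left out, log2 of the processed signal was taken, the 75th percentile of the array was subtracted, and spots of a probe were averaged. Probes well above background on at least 3 arrays were kept (13740 probes, 250 missing values). Group means over 13 arrays were fitted in R 4.3.3 with limma 3.58.1, giving 9 residual and 2.36 prior degrees of freedom. The moderated test was two-sided, with Benjamini-Hochberg adjustment over all probes and a threshold of 0.05. The contrasts were direct, indirect, their difference and the vehicle groups; the mean of both arms was added later. Single values were also tested by exact permutation, and correlations by permutation in Python 3.11.15 with scipy 1.17.1. The fit was tested on simulated data. Names came from the files and a RefSeq gene table of assembly ARS-UI_Ramb_v3.0; sequences are the arrays' own. No genome coordinates are given. A list is described by 1 probe a gene, that of the highest mean. In the 5 lists of the oxytocin system, the genes named are those that passed in any contrast or had the 5 smallest unadjusted p values in the direct arm. PTGS1, just outside those 5 in its list, is named as well. Levels by array are given for the peptide list, and the lowest and highest sum of each group for the marker lists. The genes of these lists that passed are named. LHB, PRL, CGA, FSHB, POU1F1, CA1 and TTR were named after their values were seen. For likeness, the 5 highest and 3 lowest correlations are named. The number of arrays limits the precision. Alternatives covered scaling, background correction, filters, blocks and each array left out.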

Additional observations from a re-analysis of the deposited data

How the results depend on the processing

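The direct and indirect differences of OXT stayed above 0 and short of the threshold under every alternative run: 0.14 to 0.86 direct, 0.05 to 0.83 indirect, and 0.24 to 0.65 for the mean of both arms over arrays left out one at a time. OXTR probe 1 stayed above 0 in the direct arm under all of them, with 0.42 to 0.72 over arrays left out. It passed with scaling to the median (0.79), quantile normalisation (0.83), the authors' values (0.51), normexp without maternal vehicle replicate 1 (0.39) and without fetal triclosan replicate 4 (0.72). Its indirect difference was 0.53 to 1.01 over arrays left out and turned to −0.067 with normexp background correction on all 13 arrays. With normexp the 5th percentile of probes was −3.34 on maternal vehicle replicate 1 and −4.58 to −4.14 on the other arrays, and without that array the indirect difference was 0.48. The mean of both arms for OXTR lost its call with normexp (0.16), normexp without maternal vehicle replicate 1 (0.44), the replicate block (0.69, adjusted p = 0.0594 by limma), a variance trend (0.67) and the mean of both probes (0.61), and was 0.55 to 0.79 over arrays left out, past the threshold in 4 of 13.

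OXTR probe 2 in the direct arm, at −0.01, turned positive with median scaling (0.21), quantile normalisation (0.25), normexp (0.16, also without maternal vehicle replicate 1), the authors' values (0.027), array weights (0.15) and the slide block (0.17, with or without fetal triclosan replicate 4), and was −0.27 to 0.16 over arrays left out. Its indirect difference turned to −0.13 with normexp. The difference between the arms turned positive for OXT with median scaling (0.17), all 14 arrays (0.029), the slide block (0.41, with or without fetal triclosan replicate 4) and the mean of both probes (0.0065), with −0.39 to 0.42 over arrays left out. For OXTR it turned positive with quantile normalisation (0.17), normexp (0.46) and the authors' values (0.10), with −0.44 to 0.043 over arrays left out. Maternal vehicle minus fetal vehicle turned sign for OXT with the replicate block (−0.12) and normexp without maternal vehicle replicate 1 (−0.27), with −0.30 to 0.47 over arrays left out, and for OXTR with normexp (0.40), with −0.41 to 0.072. None of these passed, and the causes were not tested. Slide-block values with and without fetal triclosan replicate 4 are alike by construction, since that array is alone on its slide.

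Probes that passed in the direct arm numbered 2490, 1339 with only the 2 groups fitted, and 1223 to 2955 over arrays left out, lowest without fetal vehicle replicate 3 (1223) or 1 (1654). In the indirect arm 0 passed, 12 with all 14 arrays, 408 with array weights, 1 with normexp without maternal vehicle replicate 1, and 0 to 2 over arrays left out. In the mean of both arms 1283 passed, 3015 with array weights, 2608 with the slide block (2609 also without fetal triclosan replicate 4), 2359 with all 14 arrays and 113 with normexp without maternal vehicle replicate 1. Over arrays left out it was 0 to 2217: 2217 without fetal triclosan replicate 4, 678, 786 and 614 without fetal vehicle replicate 1, 2 and 3, 425 and 368 without maternal triclosan replicate 1 and 2, and 0 without maternal vehicle replicate 1 or 2, where the other array of that group stands alone and is taken to vary like the other groups. Replicate numbers are not said by the labels to pair arrays, but 15 of 16 same-numbered pairs shared a slide. Of the 16, 8 deviated together with a correlation over 0.1 (−0.17 to 0.46), and 7 of 13 arrays correlated best with one of their own number. Apart from the OXTR mean of both arms the replicate block changed no call of OXT or OXTR. The mean of both arms, the division of the arrays by their peptide mean, the slide block without fetal triclosan replicate 4 and normexp without maternal vehicle replicate 1 were chosen after seeing the data. OXTR probe 1 had a raw signal of 1.87 to 2.90 times its local background, which limits its precision.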
